A study of Homo sapiens with 24 samples.

Results

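The 10 genes described here encode the Rag GTPases (RRAGA, RRAGB, RRAGC and RRAGD), the folliculin complex (FLCN, FNIP1 and FNIP2) and the transcription factors TFEB, TFE3 and MITF. They were taken by symbol from a count table of 48162 genes, in which they fill 11 rows because FLCN is listed under a pair of gene identifiers. The set was proposed with results of these data known, and the study had itself singled out RRAGC among the few genes higher in giant cells after LCL521. Every comparison with and without LCL521 was therefore used in choosing the genes, and for them is given below as values only, with no test. The comparisons of giant with parental cells were not named in choosing the genes and were tested. Each shares its libraries with the LCL521 comparisons. The results known beforehand may also have included these comparisons, so the tests are not fully independent of the choice of genes.

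RNA was sequenced from PPC1 cells, an established human prostate cancer line, in 24 libraries. Untreated parental cells (UT) were harvested on day 5 after plating. Parental cells given 5 µM LCL521, an inhibitor of the lysosomal enzyme acid ceramidase, for 5 hours before harvest made up UT_LCL. Polyploid giant cancer cells (PGCC) came from cultures that received 8 Gy of radiation on day 2, and were the cells held back by a 20 micron filter on day 5, and PGCC_LCL were prepared in the same way after LCL521. Each condition had 6 libraries, harvested in parallel in 6 separate repeats of the experiment, and the same replicate number marks the same repeat. The parental cells were neither irradiated nor filtered, so radiation, cell size and filtration cannot be told apart in a comparison of PGCC with parental cells.

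Rag GTPases sit on the lysosome as pairs, RRAGA or RRAGB with RRAGC or RRAGD, and recruit mTORC1, the kinase complex that couples growth to nutrient supply, when amino acids are plentiful. The folliculin complex acts on RRAGC and RRAGD to stimulate their GTP hydrolysis, and this step governs whether TFEB, TFE3 and MITF are held at the lysosome and phosphorylated by mTORC1. Factors that escape this hold enter the nucleus and switch on lysosomal and autophagy genes, and several Rag and folliculin genes are themselves known targets, which closes a feedback loop. The factors are controlled largely through phosphorylation and location in the cell, which mRNA counts do not measure.

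The libraries held 14835246 to 19906601 counts each, so that 3 counts, the limit a count of 0 allows, correspond to 0.151 to 0.202 CPM (counts scaled to library size). The keratins KRT8, KRT18 and KRT19 lay between 50.6 and 1124 CPM and the prostate homeobox gene HOXB13 between 307 and 906 CPM, but EPCAM reached only 0.852 CPM, TMPRSS2 at most 0.126 CPM, and KLK2 and KLK3 were at 0 in every library. Summed markers of leukocytes, endothelium and fibroblasts came to 7.79 to 15.4 CPM and overlapped between all conditions. Summed prostate luminal markers, nearly all HOXB13, did not overlap, at 570 to 882 CPM in UT against 308 to 548 CPM in PGCC and 711 to 906 CPM in UT_LCL against 361 to 539 CPM in PGCC_LCL, and the part of this difference in the results below was not tested. The 8 libraries of replicates 4 and 5 stood apart from the other 16 on the second principal component, which held 16.5% of the variance, in all 4 conditions, and the labels give no reason. Several of the 10 genes moved with these libraries, and the fold changes of PGCC against parental cells are therefore also given without them.

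Of the Rag genes, RRAGD was at the edge of detection. It had 9 counts in the 24 libraries together and 0 to 2 in each, below the limit of 3, so no fold was calculated and it was left out by the expression filter. The other 9 genes passed in every comparison. RRAGA lies on chromosome 9 (19049372-19051019, plus strand, hg19), RRAGB on X (55744172-55785207, plus strand), RRAGC on chromosome 1 (39303870-39325495, minus strand) and RRAGD on chromosome 6 (90074355-90121989, minus strand). RRAGA and RRAGB encode near-identical proteins, as to a lesser degree do RRAGC and RRAGD, and how reads matching more than 1 gene were counted is not given in the sources used here, so the split within a pair is uncertain.

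On a scale per length (RPKM, that is CPM divided by the gene length of the table in kilobases), the level order in untreated parental cells was TFE3 (22.0 ± 1.82, SD, n = 6), RRAGA (20.3 ± 3.23), RRAGB (17.1 ± 1.21), RRAGC (10.6 ± 0.707), FLCN (6.56 ± 0.459), MITF (5.80 ± 3.25), FNIP1 (3.23 ± 0.512), TFEB (2.04 ± 0.602) and FNIP2 (1.74 ± 0.495). Only RRAGB and RRAGC, and RRAGC and FLCN, were neighbours in this order whose libraries did not overlap. In PGCC the order became TFE3 (23.4 ± 2.29), RRAGA (16.6 ± 1.40), RRAGC (10.2 ± 0.641), FLCN (7.60 ± 1.02), RRAGB (7.24 ± 0.703), MITF (5.05 ± 0.584), FNIP1 (4.07 ± 0.354), FNIP2 (2.58 ± 0.667) and TFEB (0.671 ± 0.117). RRAGB thus moved from above RRAGC to a range overlapping that of FLCN, and TFEB from a range overlapping FNIP2 to below it. The lengths merge all exons of a gene, so isoforms such as those of MITF were not separated.

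**Figure D1:**
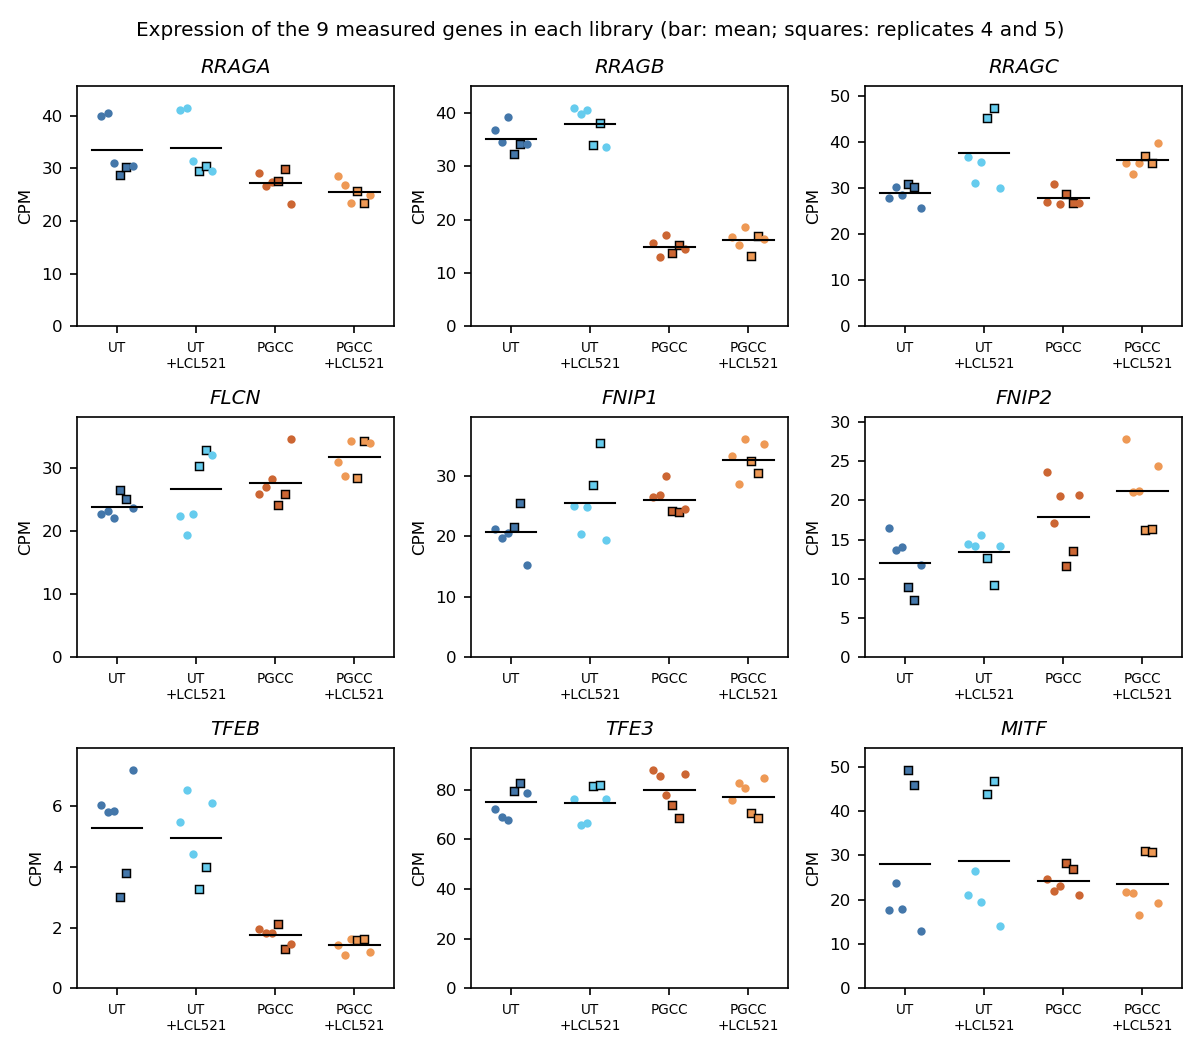
Expression of the 9 measured genes in each library, in CPM on axes that start at 0, by condition. Points are libraries, outlined squares are replicates 4 and 5, and bars are means of 6. RRAGB and TFEB lie lower in every PGCC library than in every parental library, whereas MITF is highest in replicates 4 and 5 of every condition.

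The first question was how the giant cells differ from their parental cells. Of the 9 genes tested, 2 were higher in PGCC than in UT and 3 were lower (edgeR quasi-likelihood test, adjusted p under 0.05 over all genes). Of all 13812 genes tested, 47.4% passed, 23.1% higher and 24.3% lower, so the count of 5 is close to the background. With library totals as the only scaling, 3820 of 6341 calls were higher, against 3186 of 6541 here. The amino acid-sensing RRAGB and the transcription factor TFEB fell by far more than the other genes. FNIP1 and FNIP2, the folliculin partners, rose. The fold changes and their errors are drawn in the plot of PGCC against parental cells.

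RRAGB was 32.3, 34.3 and 39.4 CPM (lowest, median and highest of 6) in UT and 13.0, 14.9 and 17.1 CPM in PGCC. All PGCC libraries were below all UT libraries. The log2 fold change was -1.23 ± 0.09 (SE; adjusted p = 2.59e-07 by edgeR), lower in 6 of 6 same-numbered pairs. Under LCL521 the same contrast, made in separate libraries, gave 33.7, 39.1 and 41.0 CPM in parental cells and 13.1, 16.6 and 18.7 CPM in PGCC, a log2 fold change of -1.20 ± 0.10 (adjusted p = 3.44e-07 by edgeR). Without replicates 4 and 5 the values were -1.24 and -1.17.

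RRAGA, which shares its role with RRAGB, was 28.7, 30.8 and 40.6 CPM in UT and 23.2, 27.5 and 29.8 CPM in PGCC. The ranges overlapped, yet the pair difference was negative in 6 of 6 repeats. Its log2 fold change was -0.29 ± 0.11 (adjusted p = 0.0374 by edgeR), and this call was lost when replicate 1, 2, 3 or 6 was left out. Under LCL521 the ranges did not overlap (29.5 to 41.5 CPM in parental cells, 23.4 to 28.6 CPM in PGCC), and the log2 fold change was -0.39 ± 0.10 (adjusted p = 0.00678 by edgeR). Without replicates 4 and 5 the values were -0.40 (adjusted p = 0.0107) and -0.43 (adjusted p = 0.00763).

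Since RRAGB fell more than RRAGA, its share in their summed RPKM moved. The share was 45.9% ± 3.67 (SD, n = 6) in UT, 47.4% ± 2.97 in UT_LCL, 30.4% ± 2.36 in PGCC and 33.8% ± 3.73 in PGCC_LCL. The highest PGCC_LCL library, at 39.1%, was below the lowest parental library, at 40.5%. RRAGD made up at most 0.194% of RRAGC and RRAGD together in any library, so nearly all counts of that pair came from RRAGC.

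RRAGC itself was 25.7, 29.3 and 30.8 CPM in UT and 26.5, 26.8 and 30.9 CPM in PGCC. The libraries overlapped throughout. The log2 fold change was -0.05 ± 0.08 (adjusted p = 0.637 by edgeR) without LCL521 and -0.04 ± 0.12 (adjusted p = 0.800) with it, and its sign turned with library totals as the only scaling and without replicates 4 and 5 (0.0037 and, with LCL521, 0.14). A difference larger than the spread between libraries was not detected.

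**Figure D2:**
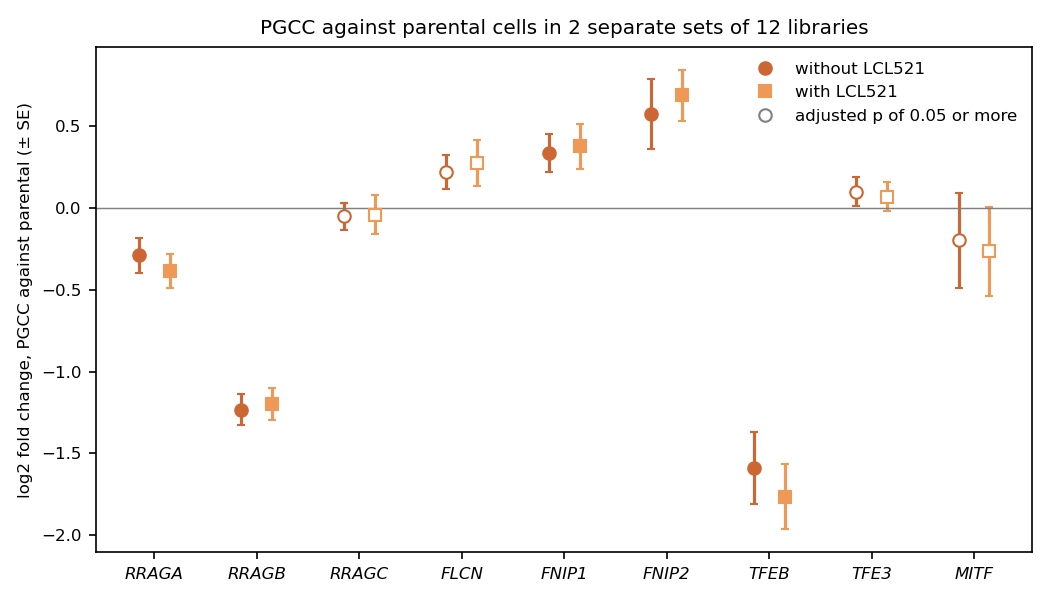
Log2 fold change of PGCC against parental cells for the 9 genes, without LCL521 (circles) and with it (squares), 6 libraries a group. Error bars are SE, and open symbols have an adjusted p of 0.05 or more. RRAGB and TFEB lie below -1 in both, while RRAGC lies at -0.05 and -0.04.

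FLCN encodes folliculin, the subunit whose loss causes a tumour syndrome, and lies on chromosome 17 (17115526-17140502, minus strand, hg19). A second FLCN row overlaps it and held 1 to 12 counts a library, 155 in all, and was not added. FLCN was 22.0, 23.4 and 26.6 CPM in UT and 24.1, 26.5 and 34.6 CPM in PGCC, with a log2 fold change of 0.22 ± 0.10 (adjusted p = 0.0978 by edgeR). The call depended on replicates 4 and 5, where the pair difference averaged -0.05 against 0.33 in the other 4. Without these libraries the log2 fold change was 0.36 (adjusted p = 0.0149). Under LCL521 the value was 0.28 ± 0.14 (adjusted p = 0.115), which passed with the replicate number as a block (0.30, adjusted p = 0.0447) and without replicates 4 and 5 (0.44, adjusted p = 0.0250).

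FNIP1 and FNIP2 encode the alternative partners of folliculin, on chromosome 5 (130761584-131132710, minus strand, hg19) and chromosome 4 (159690290-159829201, plus strand). FNIP1 was 15.3, 20.9 and 25.5 CPM in UT and 24.0, 25.4 and 29.9 CPM in PGCC. The ranges overlapped through UT replicate 5, the highest of its group. FNIP1 rose by 0.34 ± 0.12 on the log2 scale (adjusted p = 0.0273 by edgeR) and by 0.38 ± 0.14 under LCL521 (adjusted p = 0.0328), and was higher in PGCC in 5 of 6 pairs of each contrast. Both calls were lost when replicate 1, 2, 3 or 6 was left out, whereas without replicates 4 and 5 the rises were 0.50 (adjusted p = 0.00266) and 0.61 (adjusted p = 7.71e-04).

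FNIP2 was 7.29, 12.7 and 16.5 CPM in UT and 11.6, 18.8 and 23.6 CPM in PGCC. It was higher in 6 of 6 pairs although the ranges overlapped, and replicates 4 and 5 were the lowest of each group. The rise was 0.57 ± 0.21 on the log2 scale (adjusted p = 0.0394 by edgeR, and 0.00133 with the replicate block). This call too was lost without replicate 1, 2, 3 or 6. Under LCL521 the ranges did not overlap, at 9.20 to 15.5 CPM in parental cells and 16.3 to 27.8 CPM in PGCC, and the rise was 0.69 ± 0.16 (adjusted p = 0.00215). Without replicates 4 and 5 the rises were 0.56 (adjusted p = 0.00256) and 0.72 (adjusted p = 1.83e-04). The share of FNIP2 in the summed RPKM of FNIP1 and FNIP2 was 35.0% ± 8.60 in UT and 38.3% ± 5.59 in PGCC, a difference within the SD.

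Among the transcription factors, TFEB lies on chromosome 6 (41651716-41703997, minus strand, hg19), TFE3 on X (48886242-48901012, minus strand) and MITF on chromosome 3 (69788586-70017488, plus strand). TFEB, a main activator of lysosomal genes, was 3.02, 5.82 and 7.20 CPM in UT and 1.31, 1.81 and 2.10 CPM in PGCC. The groups did not overlap, and the lowest UT libraries were replicates 4 and 5. These are 52 to 111 counts a library in UT and 26 to 42 in PGCC, so TFEB is the least precisely counted of the 9. The log2 fold change was -1.59 ± 0.22 (adjusted p = 5.16e-05 by edgeR), and -1.80 without replicates 4 and 5. Under LCL521 it was -1.76 ± 0.20 (adjusted p = 7.15e-06), from 3.26, 4.96 and 6.55 CPM in parental cells to 1.11, 1.51 and 1.64 CPM in PGCC, and -2.03 without replicates 4 and 5.

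TFE3, the most abundant factor, was 67.9, 75.6 and 82.9 CPM in UT and 68.6, 81.8 and 88.0 CPM in PGCC. The groups overlapped almost completely, and the log2 fold change was 0.10 ± 0.09 (adjusted p = 0.373 by edgeR). In replicates 4 and 5 TFE3 was lower in PGCC and in replicates 1, 2, 3 and 6 it was higher, with mean pair differences of -0.19 and 0.23. Without replicates 4 and 5 the log2 fold change was 0.25 (adjusted p = 0.0190) and, under LCL521, 0.22 (adjusted p = 0.0444).

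MITF, best known from pigment cells, was 13.0, 20.9 and 49.3 CPM in UT and 21.1, 23.9 and 28.2 CPM in PGCC. Its UT values fell into separate sets, 49.3 and 45.9 CPM in replicates 4 and 5 and 13.0 to 23.8 CPM in the others. In PGCC the same replicates were also highest, at 28.2 and 26.9 CPM, but by less. The log2 fold change over all libraries was -0.20 ± 0.29 (adjusted p = 0.597 by edgeR), and without replicates 4 and 5 it was 0.34 (adjusted p = 0.0685), which passed with the replicate block (0.36, adjusted p = 0.0141). Under LCL521 it was -0.26 ± 0.27 (adjusted p = 0.446) and, without those replicates, 0.0014 (adjusted p = 0.995). No direction is given for MITF, since its sign turned with these libraries.

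By share of the summed RPKM of the 3 factors, TFE3 made up 74.2% ± 5.37 (SD, n = 6) in UT and 80.3% ± 3.02 in PGCC, MITF 18.7% ± 7.97 and 17.4% ± 2.90, and TFEB 7.11% ± 2.67 and 2.30% ± 0.371. TFEB ranged from 3.35% to 9.71% in UT and from 1.85% to 2.86% in PGCC, with no overlap. With LCL521 the TFEB share was 6.64% ± 2.22 in parental cells and 1.97% ± 0.372 in PGCC. The plot of shares by library shows that replicates 4 and 5 hold the lowest TFEB and the highest MITF shares among parental cells.

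**Figure D3:**
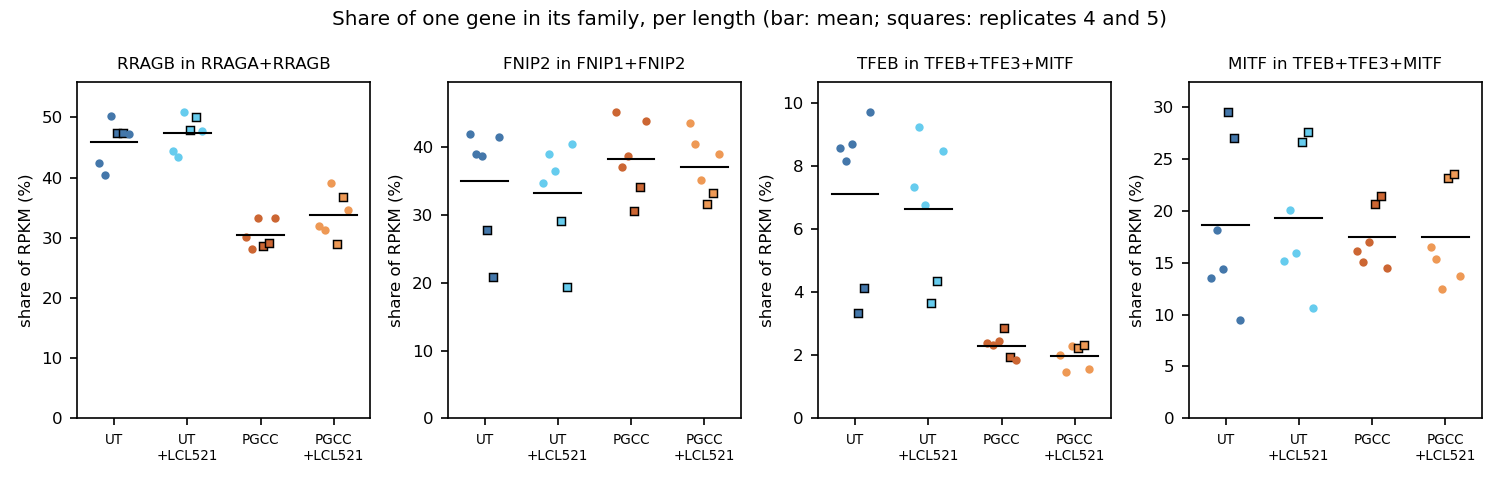
Shares of summed RPKM, in percent, in each of the 24 libraries. RRAGB is a share of RRAGA and RRAGB, FNIP2 of FNIP1 and FNIP2, and TFEB and MITF of TFEB, TFE3 and MITF. Bars are means of 6 and outlined squares are replicates 4 and 5. RRAGB averages 45.9% in UT and 30.4% in PGCC, and TFEB 7.11% and 2.30%.

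With LCL521 in both groups, the contrast of PGCC with parental cells gave the same counts. Of the 9 genes, 2 were higher and 3 lower in PGCC_LCL than in UT_LCL, against 48.9% of 13818 genes called in all, 25.0% higher and 23.9% lower. The contrasts with and without LCL521 share no library, but same-numbered libraries come from the same repeat. RRAGB and TFEB were the members that passed in both contrasts whichever replicate was left out.

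LCL521 itself gave small differences, and the genes were chosen on them. Without a block, edgeR called 0.00% of 13277 genes between UT_LCL and UT (0 genes, with 71 at an unadjusted p under 0.05, and 0 by DESeq2) and 0.00707% of 14151 genes between PGCC_LCL and PGCC (1 gene, with 218 at an unadjusted p under 0.05, and 7 by DESeq2). With the replicate number as a block, 0.520% of genes were called higher and 0.346% lower in parental cells, and 1.08% higher and 0.572% lower in PGCC. The differences below are log2 CPM with minus without LCL521 in same-numbered pairs.

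RRAGC was 25.7, 29.3 and 30.8 CPM in UT and 30.1, 36.2 and 47.3 CPM in UT_LCL. It was higher with LCL521 in 6 of 6 pairs, by 0.36 ± 0.22 (SD, n = 6), although the ranges overlapped slightly, with the lowest UT_LCL library under the highest UT library. The pairs of replicates 4 and 5 differed most, by 0.60 on average against 0.24 in the other 4. In PGCC, RRAGC went from 26.5, 26.8 and 30.9 CPM to 33.0, 35.4 and 39.7 CPM, by 0.37 ± 0.15, higher in 6 of 6 pairs with no overlap. There replicates 4 and 5 averaged 0.38 and the others 0.37. The PGCC difference minus the parental difference averaged 0.01 ± 0.21 and was positive in 3 of 6 repeats.

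FNIP1 showed a similar pattern. It was 15.3, 20.9 and 25.5 CPM in UT and 19.3, 25.0 and 35.4 CPM in UT_LCL, higher in 6 of 6 pairs by 0.29 ± 0.15 (SD, n = 6). In PGCC it went from 24.0, 25.4 and 29.9 CPM to 28.6, 32.9 and 36.1 CPM, higher in 6 of 6 pairs by 0.33 ± 0.15. The conditions overlapped in both populations, so the difference is seen within repeats rather than between ranges.

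FLCN and FNIP2 differed less evenly. FLCN was higher with LCL521 in 4 of 6 parental pairs (0.13 ± 0.26) and in 5 of 6 PGCC pairs (0.21 ± 0.15). FNIP2 was higher in 5 of 6 parental pairs (0.18 ± 0.23) and in 6 of 6 PGCC pairs (0.26 ± 0.14). In parental cells the SD exceeded the mean for both genes.

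Of the other measured genes, RRAGB averaged 0.10 ± 0.08 in parental cells and 0.12 ± 0.10 in PGCC, higher in 5 of 6 pairs of each, and RRAGA averaged 0.02 ± 0.03 and -0.10 ± 0.16. TFEB averaged -0.07 ± 0.22 in parental cells and -0.26 ± 0.32 in PGCC, where it was lower in 5 of 6 pairs, TFE3 -0.01 ± 0.05 and -0.05 ± 0.09, and MITF 0.08 ± 0.14 and -0.08 ± 0.24. For none of these 3 factors did the mean exceed its SD in either population. Over the whole table, no gene passed the test that its LCL521 difference differed between PGCC and parental cells (edgeR interaction term, 0 of 14555 genes, 60 at an unadjusted p under 0.05, and 0 by DESeq2). Both fits were without the replicate block and so did not use the pairing of libraries. They cannot show that the differences were equal.

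**Figure D4:**
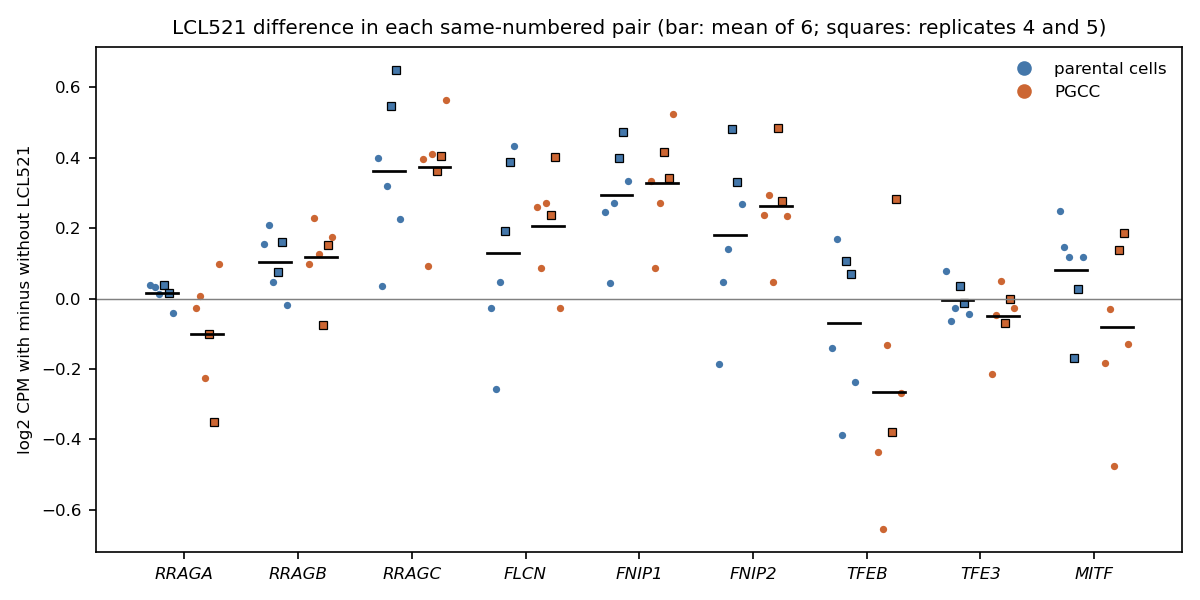
LCL521 difference in log2 CPM for each same-numbered pair, parental cells in blue and PGCC in orange. Bars are means of 6 pairs and outlined squares are replicates 4 and 5. All 12 points of RRAGC and of FNIP1 lie above 0, with means of 0.36 and 0.37 for RRAGC and 0.29 and 0.33 for FNIP1.

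The promoters of the 10 genes, where given, were read for the E-box letters CACGTG, the core of the element that TFEB, TFE3 and MITF bind. Windows of 250 bases before to 50 bases after RefSeq gene starts (GRCh38.p14) were given for 8 of the 10 genes, 13 windows in all, and none for RRAGA and RRAGD. CACGTG reads the same on both strands and stood in 7.26% of all 35116 windows, and in a window of 8.77% of 27305 genes. It stood in the windows of 3 genes, RRAGC (at -112 from the start), FNIP1 (at -175 and -94) and RRAGB (3 matches, at -115, -25 and 8). The windows of FLCN, FNIP2, TFEB, TFE3 and MITF did not hold these letters. All matches upstream of the start in RRAGC, FNIP1 and RRAGB were followed by A or preceded by T, a form found in 3.71% of all windows, and the RRAGB match at -25 had GT before and AC after it, as 0.353% of windows do. The stretches around the matches upstream of the start are shown for the 3 genes that held a match (the RRAGB match at 8 lies outside). They run 5′ to 3′ on the strand of the gene, with CACGTG in capitals.
RRAGC, chr1:38859849-38859914, minus strand: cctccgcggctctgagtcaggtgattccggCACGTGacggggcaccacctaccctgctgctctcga
FNIP1, chr5:131797086-131797212, minus strand: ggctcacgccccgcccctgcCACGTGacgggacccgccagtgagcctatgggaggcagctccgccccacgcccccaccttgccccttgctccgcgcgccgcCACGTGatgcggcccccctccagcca
RRAGB, chrX:55717615-55717738, plus strand: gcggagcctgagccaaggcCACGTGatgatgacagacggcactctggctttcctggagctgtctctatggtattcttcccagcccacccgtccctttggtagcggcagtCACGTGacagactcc
A match is a description of letters, and binding was not measured. In PGCC against UT, RRAGB fell, FNIP1 rose and RRAGC did not pass the test. Whether the letters bear on these differences or on those with LCL521 was not tested, and the LCL521 differences were used in choosing the genes.

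The other genes of the pathway were described from lists written with earlier results known, in PGCC against UT unless stated. Their counts are to be read against the 23.1% of all genes that were higher and the 24.3% that were lower. Ragulator, the scaffold that anchors Rag GTPases to the lysosome, and the arginine sensor SLC38A9 gave 0 of 6 genes higher and 2 lower, LAMTOR1 (-0.40 ± 0.08, adjusted p = 0.00121) and LAMTOR5 (-0.37 ± 0.11, adjusted p = 0.00956, both by edgeR). Under LCL521, 4 of the 6 were lower in PGCC, a contrast in which 23.9% of all genes were lower. The median of the list was -0.27, against -0.03 over all genes tested.

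GATOR1, which switches RRAGA and RRAGB off, and its anchor KICSTOR gave 1 of 7 genes higher, KPTN (0.61 ± 0.11, adjusted p = 3.25e-04), and 1 lower, C12orf66 (-0.47 ± 0.13, adjusted p = 0.00883, both by edgeR). Of 10 tested genes for GATOR2, which restrains GATOR1, and for amino acid sensors, 1 was higher and 5 were lower, with a median of -0.36. With LCL521 in both groups, 1 was higher and 4 were lower. The sestrin gene SESN3 rose by 0.94 ± 0.30 (adjusted p = 0.0202, a call lost without replicate 1 or 2), whereas its relative SESN1 fell by 0.57 on the log2 scale (adjusted p = 0.00195). SEH1L, a GATOR2 and nuclear pore subunit, fell by 0.72 on the log2 scale (adjusted p = 4.94e-04, all by edgeR).

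Of 9 genes of mTORC1, its activator RHEB and the TSC complex that restrains RHEB, 1 was higher and 4 were lower. With LCL521 in both groups, 1 was higher and 3 were lower. DEPTOR, an inhibitor of mTOR, had the largest change of the list, from 13.8 ± 4.76 CPM (SD, n = 6) in UT to 3.78 ± 0.917 in PGCC, a log2 fold change of -1.86 ± 0.23 (adjusted p = 2.06e-05 by edgeR). MLST8 fell by 0.28 and TSC2 rose by 0.27 on the log2 scale (adjusted p = 0.0131 and 0.00904), MLST8 lost its call with library totals as the only scaling (-0.18, adjusted p = 0.0738), and MTOR and RHEB, at 0.10 and 0.05, did not pass. Of the C9orf72 complex, which resembles the folliculin complex in structure, 1 of 3 genes was lower, WDR41 (-0.58 ± 0.11, adjusted p = 7.62e-04).

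Lysosomal and autophagy genes known as targets of the TFE factors were mixed in PGCC against UT. Of 24 listed, 21 were tested, and 5 were higher, 2 lower and 14 did not pass, with a median of 0.09. The numbers higher and lower compare with 23.1% and 24.3% of all genes. With LCL521 in both groups, 5 were higher and 3 lower, beside 25.0% and 23.9% of all genes. The lysosomal hydrolase genes GLA and NEU1 rose by 1.12 ± 0.14 (adjusted p = 2.38e-05) and 0.82 ± 0.10 (adjusted p = 1.54e-05), while SGSH, another hydrolase gene, was -0.96 ± 0.12 (adjusted p = 2.54e-05, all by edgeR). HEXA was listed at 0 in every library. The reason was not tested, so this is not read as absent expression. For the list as a whole, LCL521 against no LCL521 was fitted with the replicate block. In PGCC 4 of 21 genes were higher and 0 lower, where 1.08% of all genes were higher. In parental cells 2 of 21 were higher and 0 lower, where 0.520% of all genes were higher. The list was written with earlier results known, so these counts are descriptions.

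**Figure D5:**
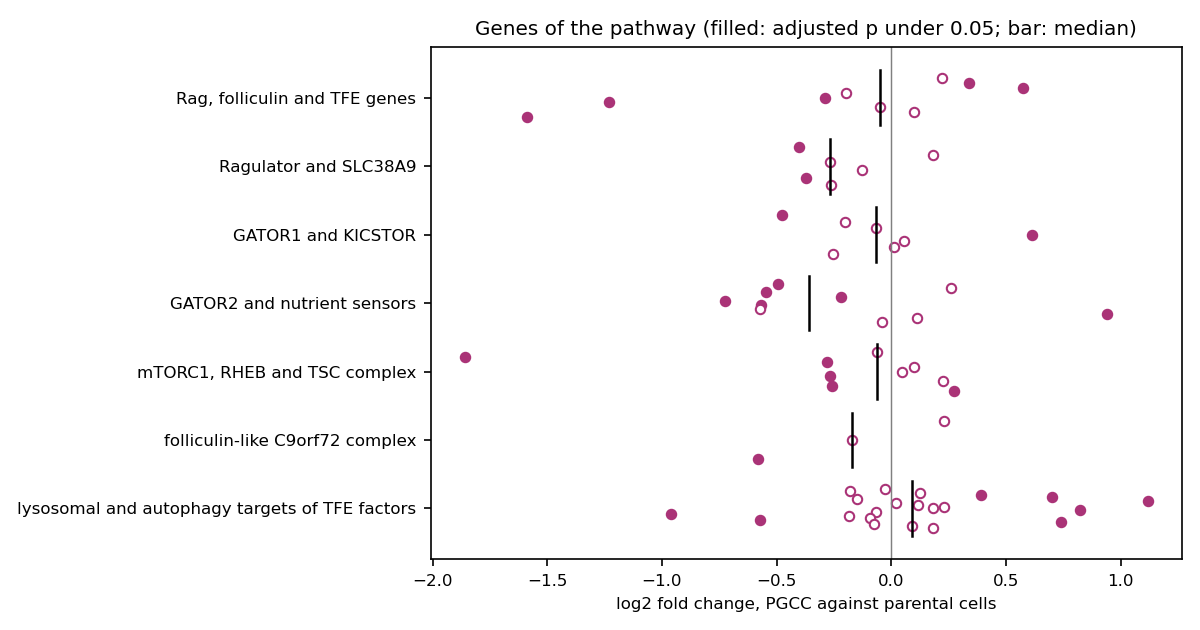
Log2 fold change of PGCC against UT for the 9 measured genes and for each pathway list, 1 point a gene, filled where the adjusted p is under 0.05, with the median as a bar. DEPTOR, at -1.86, is the point farthest to the left and GLA, at 1.12, the one farthest to the right.

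Genes whose pattern was most like that of each member were named by Pearson correlation of log2 CPM over the 24 libraries, among 10656 genes. The libraries share repeats and conditions, so these values are descriptions. For RRAGC they were the syntaxin gene STX3 (r = 0.780), KIAA1551 (0.749), ZNF703 (0.746), the pro-apoptotic BCL2 family gene BMF (0.726) and FAM214A (0.720). The study lists STX3 beside RRAGC among the few genes that LCL521 raised in PGCC, and RRAGC was chosen on that difference. The best match was closest for RRAGB, with OGFOD3 (0.978), and next for TFEB, with ALG3 (0.964) and the antioxidant enzyme gene NQO1 (0.964). It was NPC1 (0.858), a lysosomal cholesterol transporter gene, for FNIP1, SCFD2 (0.939) for RRAGA, HSBP1L1 (0.849) for FLCN, NBPF1 (0.924) for FNIP2, JUNB (0.850) for TFE3 and ARHGAP18 (0.952) for MITF. Among the members themselves RRAGB and TFEB were closest to each other (0.910), and RRAGC was closest to FNIP1 (0.643).

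In bulk RNA, fewer cells of a kind and less RNA per cell cannot be told apart, and CPM values are relative to the total of each library. A lower CPM of RRAGB or TFEB in PGCC is therefore not a measure of transcripts per cell, which was not determined in these samples.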

How the data were processed

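Total RNA of PPC1 cells was sent by the authors to a sequencing company, which made the libraries and the counts. Per the submitters' processing notes, CASAVA, STAR, HTSeq and DESeq2 were used with hg19. Tool versions stand in the methods of the study, whereas the annotation release and the strand setting are not given in the sources used here. The deposited table holds raw counts per gene, 48162 genes by 24 libraries. The 10 genes and all gene lists were chosen with earlier results of these data known. For FLCN the identifier ENSG00000154803 was used. Each comparison was fitted on its 12 libraries with edgeR 4.0.16 in R 4.3.3 (TMM, filterByExpr with a minimum count of 10 and total of 15, quasi-likelihood test, Benjamini-Hochberg over all genes, threshold 0.05). CPM used TMM library sizes, log2 CPM a prior count of 2, and RPKM the lengths of the table. Intervals and limits from counts cover counting error only. Named genes were the 10 members, up to 3 called genes with the largest change per list, and the genes most correlated with each member at a mean log2 CPM of at least 2. Same-numbered libraries come from 1 repeat, and their deviations correlated in every pair (lowest r 0.237, 0.171, 0.460 and 0.384 for PGCC against UT, PGCC_LCL against UT_LCL, UT_LCL against UT and PGCC_LCL against PGCC), so a replicate block was an alternative fit. No libraries were duplicates (chi-square per degree of freedom 4.69 to 109.8 over 60 pairs). The scripts were tested on simulated data. Alternatives were DESeq2 1.42.0, RLE factors, library totals, other count filters, all 24 libraries in 1 fit, and leaving replicates out. One of the listed marker genes is not reported here.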

Additional observations from a re-analysis of the deposited data

How the results depend on the processing

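RRAGB and TFEB kept their direction and their call in both PGCC against parental contrasts under every alternative run. The number of the 9 genes called in PGCC against UT was 5, and became 3 with genes of at least 1 count in any library, 4 with at least 10 counts in every library, 7 without replicates 4 and 5, 8 when a replicate block was added to that, and 2 to 6 when 1 replicate was left out. RRAGA lost its call with library totals alone (-0.19, adjusted p = 0.150), where FLCN gained one (0.31, adjusted p = 0.0257), and also with at least 1 count in any library (adjusted p = 0.0631) and at least 10 counts in every library (adjusted p = 0.0609). FNIP1 lost its call with at least 1 count in any library in both contrasts (adjusted p = 0.0762 and 0.0715). The log2 fold change of RRAGC in PGCC against UT turned sign with library totals alone (0.044), when replicates 4 and 5 were left out (0.0037) and when the block was added to that (0.0036). In PGCC_LCL against UT_LCL it did so with library totals alone (0.018) and without replicates 4 and 5 (0.14 in either fit), and leaving out 1 replicate gave -0.14 to 0.042. MITF turned sign without replicates 4 and 5, to 0.34 and, with the block, 0.36 in PGCC against UT, and to 0.0014 and 0.020 in PGCC_LCL against UT_LCL. Library totals alone moved the median of all genes from -0.03 to 0.07 and the split of calls in PGCC against UT from 3186 higher of 6541 to 3820 higher of 6341, and the filter of at least 1 count in any library gave 4406 higher of 7675. The genes called in UT_LCL against UT, 0 without a block, were 115 with the replicate block and 3 with it and replicates 4 and 5 left out. In PGCC_LCL against PGCC, 1 gene without a block became 7 with DESeq2, 0 in a fit of all 24 libraries, 234 with the replicate block, 0 without replicates 4 and 5, 129 without them and with the block, and 0 to 1 when 1 replicate was left out. In PGCC against parental cells the replicate block over all 6 replicates changed the call of FLCN under LCL521 and of no other member, and without replicates 4 and 5 it brought MITF past the threshold in PGCC against UT (adjusted p = 0.0141). The causes of these changes were not tested. Depth limits RRAGD, with 0 to 2 counts a library.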

Other observations

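TFEC, the fourth gene of the TFE family and not among the 10, was looked up after its values were seen. It held 0 to 14 counts in UT and 35 to 71 in PGCC, or 0.263 ± 0.307 and 3.33 ± 0.728 CPM (SD, n = 6), with no overlap. With LCL521 it held 2 to 14 counts in parental cells and 57 to 85 in PGCC. No test is given, since the gene was chosen for this pattern. In PGCC its CPM was thus above the 1.74 ± 0.303 CPM of TFEB, whereas in UT it was below the 5.28 ± 1.56 CPM of TFEB, each before correction for gene length.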
